A study of Mus musculus with 6 samples.

Results

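The lysosome is the acidic compartment in which cells break down proteins, lipids, glycans and worn organelles, and in phagocytes it also digests what they engulf. Its hydrolases are made as secretory proteins, tagged with mannose 6-phosphate and delivered to an organelle that the vacuolar ATPase keeps acidic and that glycosylated membrane proteins line. Many of these genes are switched on together by the transcription factors Tfeb and Tfe3 of the Mit/Tfe family, which the Rag GTPases and folliculin (Flcn) hold in the cytoplasm while nutrients are plentiful. Granulocyte precursors pack related proteases into their granules, so lysosomal and granule genes are both part of the myeloid program.

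The 46 genes described here are 7 regulators (the 4 Mit/Tfe factors Tfe3, Tfeb, Mitf and Tfec, with Flcn, Rragc and Rragd), 19 lysosomal hydrolases, 3 luminal proteins without enzyme activity, 11 membrane proteins and 6 autophagy genes. They were listed by name, chosen by their known roles with the summed estimated counts of the genotypes in view, and all 46 were among the 16656 genes that passed the filter on low counts, of 29374 genes with any read. Since the genotype contrast was known when the list was made, its members' fold changes and adjusted p-values are given as a description and are not independent evidence. Of 146 further lysosome, autophagy and nutrient-sensing genes that are no members, 141 could be tested in the same fit.

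The cells came from the spleens of tumor-bearing mice that carried the Mll-AF9 knockin allele, a fusion that causes acute myeloid leukemia. Rpl22+/+ Mll-AF9 mice (3 libraries) were compared with Rpl22-/- Mll-AF9 mice (3 libraries), so both groups carried the fusion and were labelled as differing in Rpl22 genotype. CD11b+Gr1+ splenocytes were sorted, and their poly(A) RNA was sequenced with a stranded kit. The study describes its mice as young adults. It names 1 mouse per genotype for the sequenced leukemias, so the 3 libraries of a genotype may come from 1 animal. Genotype and animal then cannot be told apart, and p-values measure only the spread between libraries, which may be technical.

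Depth was 35828500 to 102866127 estimated reads per library, lowest in Rpl22-/- replicate 1. Rpl22 itself was at 148.4, 234.8 and 152.3 CPM (counts scaled to the library's total) in Rpl22+/+ and at 58.3, 89.9 and 73.5 CPM in Rpl22-/- libraries, lower in every Rpl22-/- library. The gene sum does not isolate the deleted part, so this is no full check of the label. Rpl22+/+ replicate 2 stood apart. It correlated across genes at 0.926 and 0.934 with the other Rpl22+/+ libraries, which correlated with each other at 0.992. It had the highest CPM of its group for 38 of the 46 members (82.6%), against 54.7% of all genes tested, and so widened the Rpl22+/+ spread of most of them. Marker genes moved too. All 5 primary granule genes were higher in Rpl22-/- cells, with a summed level of 22478 to 27374 CPM against 2389 to 4095 CPM, and all 6 secondary and tertiary granule genes were lower, at 11555 to 15839 against 41839 to 57082 CPM. Of 6 monocyte markers 4 were lower and none was higher (1191 to 1543 against 1875 to 2216 CPM in sum). Of the 10 tissue macrophage markers 7 were higher and 1 was lower, with Adgre1 falling and a summed level of 69.7 to 112.2 against 106.6 to 142.1 CPM. Of the 8 erythroid markers 7 were higher, at 616.1 to 1190 against 88.4 to 134.4 CPM. Of 6 genes of the sorted myeloid cells 2 were lower and none was higher (3359 to 3900 against 4428 to 4599 CPM in sum), and 3 were lower and 2 higher (Ly6c2 and Csf3r) without Rpl22+/+ replicate 2. Ptprc (CD45), the lower gene added there, was at 1128, 155.1 and 1054 CPM in Rpl22+/+ and 309.6 to 513.5 CPM in Rpl22-/- cells, so replicate 2 lay far below its group. Itgam (CD11b) averaged 1928 CPM in Rpl22+/+ and 948.4 CPM in Rpl22-/- cells, and Ly6g 159.5 and 14.2 CPM. Ly6c2, whose product the Gr1 antibody also binds, averaged 967.5 and 1379 CPM and was not called with all libraries. Of 6 T and NK cell markers 5 were lower and 1 (Ncr1) was higher, at 11.3 to 13.6 against 30.5 to 38.8 CPM, and of 5 mast cell and basophil markers 3 were lower, at 7.84 to 16.5 against 14.0 to 23.0 CPM. The 6 B cell markers summed to 365.2 to 559 against 579.3 to 731.4 CPM, with 1 lower (2 without Rpl22+/+ replicate 2). Of the tested markers of dendritic cells (8) and eosinophils (3), 1 each was lower, and none of 3 platelet markers was called. Of 4 stroma markers 3 were not called, and the other is not read because its gene sum was incomplete (0.392 of the authors' mean normalised count). The erythroid marker Klf1 was at 0 in Rpl22-/- replicates 1 and 3, but its gene sum was incomplete too (0.467). The part of cell composition in the results below was not tested.

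Of the Mit/Tfe factors, Tfe3 and Tfeb were lower and Tfec was higher in Rpl22-/- cells. Tfe3 (chromosome X, 7628799 to 7641441, GRCm39) was at 79.6, 126.7 and 89.6 CPM in Rpl22+/+ and at 30.8, 35.3 and 37.6 CPM in Rpl22-/- cells. Every Rpl22+/+ library lay above every Rpl22-/- library, and the log2 fold change was -1.51 ± 0.21 (SE, adjusted p = 0.00261). Tfeb (chromosome 17, 48047955 to 48103344) was at 66.6, 111.4 and 70.6 CPM in Rpl22+/+ and at 32.0, 43.1 and 36.8 CPM in Rpl22-/- cells, a log2 fold change of -1.15 ± 0.24 (adjusted p = 0.0131). Its groups did not overlap either, although the adjusted p-value reached 0.0588 when Rpl22-/- replicate 1 or 3 was left out. Tfec (chromosome 6, 16833372 to 16898440), a family member found mainly in myeloid cells, was at 38.2, 36.9 and 39.0 CPM in Rpl22+/+ and at 68.4, 65.8 and 58.0 CPM in Rpl22-/- cells. It rose by 0.75 ± 0.12 on the log2 scale (adjusted p = 0.00551), and all Rpl22-/- libraries lay above all Rpl22+/+ libraries. Mitf was low in every library, at 5.81 to 7.43 CPM in Rpl22+/+ and 6.68 to 8.03 CPM in Rpl22-/- cells, and the groups overlapped (log2 fold change 0.12 ± 0.17, adjusted p = 0.676). In bulk RNA, fewer cells that express a gene and less of its RNA per cell cannot be told apart.

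The balance of the family therefore differed, which is best seen on a scale per transcript length. In TPM (abundance scaled for transcript length and library total), Tfeb was the highest of the 4 in Rpl22+/+ cells at 53.2 ± 6.01 (SD, n = 3), followed by Tfe3 at 45.0 ± 4.66, Tfec at 28.8 ± 4.86 and Mitf at 2.13 ± 0.572. The SDs of Tfeb and Tfe3 overlapped, although Tfeb was above Tfe3 within each Rpl22+/+ library (49.8 and 40.0, 60.1 and 49.2, and 49.7 and 45.9 TPM), and the other neighbours in either genotype lay apart by more than their SDs. In Rpl22-/- cells Tfec led at 51.8 ± 7.04 TPM, ahead of Tfeb at 27.3 ± 2.39, Tfe3 at 16.8 ± 1.09 and Mitf at 2.28 ± 0.254 TPM. Tfe3 held 34.8% ± 2.23 of the family's summed TPM in Rpl22+/+ and 17.2% ± 1.38 in Rpl22-/- cells, and Tfec went from 22.4% ± 4.46 to 52.6% ± 3.59. The family's sum was 129.1 ± 5.20 TPM in Rpl22+/+ and 98.2 ± 6.57 TPM in Rpl22-/- cells.

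**Figure D1:**
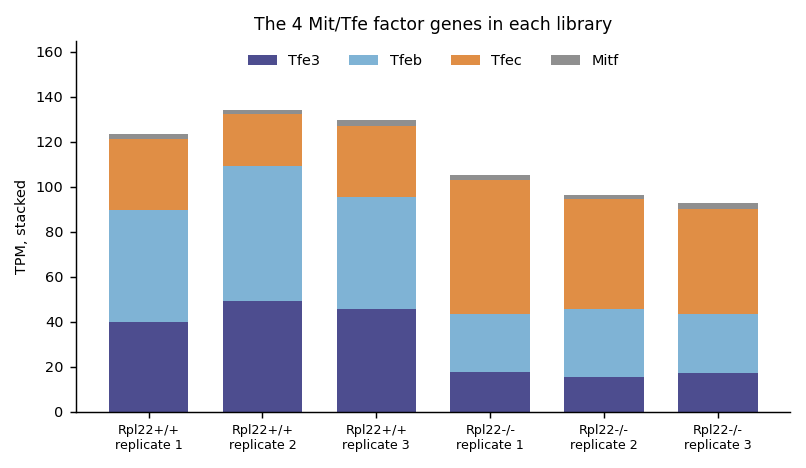
Stacked TPM of Tfe3, Tfeb, Tfec and Mitf in each of the 6 libraries, 1 bar per library. Tfe3 and Tfeb form the larger part of every Rpl22+/+ bar, while Tfec makes up 50.5% to 56.8% of the Rpl22-/- bars.

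The upstream regulators showed no call. Flcn, which forms a GTPase-activating complex for Rragc and Rragd, was at 39.8 to 51.9 CPM in Rpl22+/+ and 36.7 to 43.8 CPM in Rpl22-/- cells (log2 fold change -0.10 ± 0.16, adjusted p = 0.689). Rragc, a Rag GTPase that helps to recruit Tfeb and Tfe3 to the lysosome, was at 67.4 to 84.7 and 63.9 to 68.8 CPM (-0.18 ± 0.14, adjusted p = 0.396). Rragd, its paralog, stayed under 0.7 CPM in every library, too low to show a modest difference (-0.51 ± 0.35, adjusted p = 0.342). For these 3 genes and Mitf the groups overlapped, and no other fit that gave a value called any of them.

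Across the 46 members, 3 were called higher in Rpl22-/- cells (Laptm4b, Arsb and Tfec) and 13 lower at an adjusted p-value under 0.05, and 30 were not called. Of all 16656 genes tested, 13.7% were called higher and 13.8% lower. Past a 2-fold change, 1 member was higher (Laptm4b) and 4 were lower (Tfe3, Psap, Ctss and Tfeb), where 8.93% and 8.54% of all genes were. The groups did not overlap for 5 members on the higher side and 18 on the lower side, beside 23.9% and 22.2% of all genes. The median log2 fold change was -0.22 over the members and 0.07 over all genes tested. Leaving out 1 library moved these counts and those of all genes, of which 2288 were higher and 2306 lower with all libraries. Without Rpl22-/- replicate 3, 2 members were lower, beside 1387 of 16934 genes. Without Rpl22+/+ replicate 3 it was 3 members, beside 1447 of 17381 genes, and without Rpl22-/- replicate 1 it was 4, beside 1531 of 17392. Without Rpl22+/+ replicate 2, 8 members were higher and 15 lower, beside 3543 and 3312 of 17183 genes. Tfe3, Tfec, Asah1 and Laptm4b kept their call whichever library was left out. When a minimum fold of 1.5 was tested, Tfe3 and Laptm4b were the members still called.

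**Figure D2:**
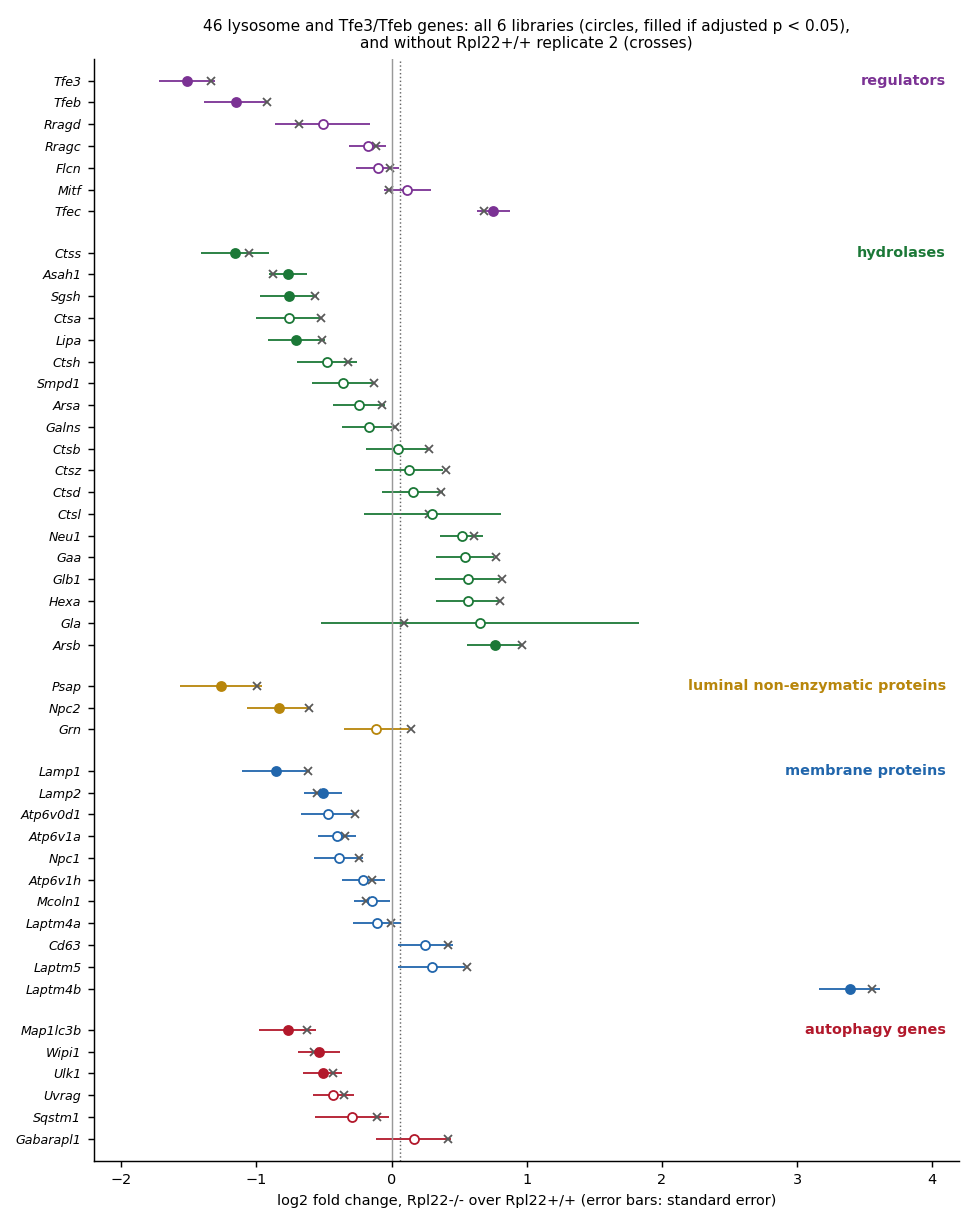
Log2 fold change of each of the 46 members, Rpl22-/- over Rpl22+/+, by class, with the standard error as the bar. Circles are filled where the adjusted p-value is under 0.05, crosses give the value without Rpl22+/+ replicate 2, and the dotted line is the median of all genes, 0.07. Most crosses of the hydrolases lie to the right of their circles.

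The promoter windows of the members were searched for the E-box CACGTG, the core of the sites that Mit/Tfe factors and other basic helix-loop-helix proteins bind, and for the longer TCACGTGA, which reads the same on both strands and contains the shorter one. RefSeq windows of 300 bases (GRCm38.p6) were held for 39 of the 46 members. CACGTG was found in 13 of the 39 members (33.3%) and in 8.09% of all 27025 genes with a window. TCACGTGA was found in 6 of the 39, namely Ctsa, Ctsd, Gla, Atp6v0d1, Atp6v1a and Mcoln1, and in 1.12% of all genes with a window. Stretches upstream of the gene's start are shown for the called members Lamp1 and Sgsh and for 3 well-known lysosomal genes with the longer motif, which is in capitals (CACGTG alone for Lamp1 and Sgsh).
Lamp1: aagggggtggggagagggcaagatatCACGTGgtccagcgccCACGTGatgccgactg
Sgsh: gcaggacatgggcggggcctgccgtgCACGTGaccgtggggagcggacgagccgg
Ctsa: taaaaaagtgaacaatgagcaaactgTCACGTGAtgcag
Ctsd: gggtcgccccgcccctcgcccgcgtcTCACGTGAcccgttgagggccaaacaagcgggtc
Mcoln1: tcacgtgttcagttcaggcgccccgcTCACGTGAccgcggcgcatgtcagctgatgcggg
These lie at chr8:13159074-13159131 (plus strand), chr11:119355511-119355565 (minus), chr2:164833734-164833772 (plus), chr7:142387893-142387952 (minus) and chr8:3500447-3500506 (plus), in that order.

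Gla is left out of the following counts, since its gene sum was incomplete. Of the 12 other members with CACGTG, 2 were lower (Lamp1 and Sgsh) and none was higher, with a median log2 fold change of -0.21. Of the 26 members whose window lacked it, 10 were lower and 2 higher, with a median of -0.33. None of the 5 other members with TCACGTGA was called in the reported fit, while of the 19 other fits 9 called Ctsa, 7 called Atp6v1a and 1 called Atp6v0d1 lower. Among all genes with a window, 17.5% of the 223 tested genes with TCACGTGA were lower and 10.3% higher, and 5 members are too few to set against these shares. Likewise 14.4% of the 1251 tested genes with CACGTG were lower and 14.0% higher, against 15.2% and 13.9% of the 9841 without it. A match of letters is a description of the window and shows no binding.

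Among the 19 hydrolases, 4 were lower and 1 was higher in Rpl22-/- cells, beside 13.8% and 13.7% of all genes. Their median log2 fold change was 0.05. Ctss, a cysteine protease that trims the invariant chain in antigen-presenting cells, was at 239.6, 343.7 and 287.3 CPM in Rpl22+/+ and at 89.3, 159.0 and 141.4 CPM in Rpl22-/- cells. It fell by 1.16 ± 0.25 on the log2 scale (adjusted p = 0.016, and up to 0.0547 without Rpl22+/+ replicate 3 or Rpl22-/- replicate 3). Asah1, the acid ceramidase, was at 119.1, 108.5 and 131.5 CPM in Rpl22+/+ and at 68.3, 78.2 and 64.9 CPM in Rpl22-/- cells (log2 fold change -0.76 ± 0.14, adjusted p = 0.00873). It is a called hydrolase for which Rpl22+/+ replicate 2 was the lowest of its group, and the change was -0.87 without that library. Sgsh, which removes N-sulfates from heparan sulfate, was at 30.6, 50.01 and 34.3 against 21.0, 24.3 and 22.5 CPM (-0.76 ± 0.21, adjusted p = 0.0347). Lipa, the acid lipase that frees cholesterol and fatty acids from lipoprotein lipids, was at 83.3, 131.1 and 89.3 against 57.4, 71.8 and 57.2 CPM (-0.70 ± 0.21, adjusted p = 0.0482). For Sgsh and Lipa the adjusted p-value exceeded 0.05 without Rpl22+/+ replicate 3, Rpl22-/- replicate 1 or Rpl22-/- replicate 3, and for Lipa also without Rpl22+/+ replicate 1, at up to 0.121 and 0.164. Lipa also lost its call in 4 of the 13 other fits that kept all libraries (adjusted p up to 0.433).

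Arsb, which removes sulfates from dermatan and chondroitin sulfate, was the hydrolase called higher, at 78.4, 123.7 and 80.6 CPM in Rpl22+/+ and 161.2, 167.9 and 150.6 CPM in Rpl22-/- cells (log2 fold change 0.76 ± 0.20, adjusted p = 0.0332). The adjusted p-value was 0.00122 without Rpl22+/+ replicate 2 and up to 0.129 without Rpl22+/+ replicate 1 or 3 or Rpl22-/- replicate 1 or 3. A group of glycosidases had positive values that did not pass. These 4 are named after their values were seen. Neu1, the lysosomal sialidase, was at 110.1, 143.3 and 112.4 against 180.0, 186.3 and 157.7 CPM (log2 fold change 0.52 ± 0.16, adjusted p = 0.0503). Hexa, a hexosaminidase subunit, was at 220.1, 378.8 and 241.1 against 374.1, 468.4 and 401.4 CPM (0.57 ± 0.24, adjusted p = 0.126). Gaa, which degrades glycogen, and Glb1, the beta-galactosidase, had log2 fold changes of 0.54 ± 0.22 (adjusted p = 0.113) and 0.56 ± 0.24 (adjusted p = 0.137). Without Rpl22+/+ replicate 2 all 4 were called, at log2 fold changes of 0.61, 0.80, 0.77 and 0.82. Of the 19 other fits, 12 called Neu1 and 6 each called Hexa, Gaa and Glb1, namely those without Rpl22+/+ replicate 2, with no composition factor, on either log2 TPM scale, with the replicate block and with the GC correction. Ctsa, the carboxypeptidase that stabilizes Neu1 and Glb1, had the opposite sign, at 264.7, 461.0 and 299.1 against 173.4, 232.1 and 199.4 CPM (-0.76 ± 0.24, adjusted p = 0.0586, and 0.0465 without Rpl22+/+ replicate 2). Of the 19 other fits, 9 called it lower.

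Ctsd, Ctsb and Ctsz, cathepsins of the lysosomal lumen, were not called. Ctsd, the main aspartic protease of lysosomes and the hydrolase with the highest TPM averaged over all 6 libraries, was at 358.8, 595.0 and 394.2 CPM in Rpl22+/+ and 462.9, 571.3 and 467.8 CPM in Rpl22-/- cells, with overlapping groups (log2 fold change 0.16 ± 0.23, adjusted p = 0.671). Ctsb and Ctsz also overlapped, at log2 fold changes of 0.05 ± 0.24 and 0.13 ± 0.25. Ctsl varied within a group rather than between groups, from 16.9 to 76.5 CPM among Rpl22-/- libraries. On the summed TPM scale the 19 hydrolases stood at 2293 ± 233 in Rpl22+/+ and 2246 ± 144 in Rpl22-/- cells (SD, n = 3), a difference smaller than either SD. The remaining Ctsh, Galns, Arsa and Smpd1 had log2 fold changes of -0.48 to -0.17 and were not called. Of the 19 other fits, 1 called Ctsh lower, the one with the replicate block. Gla is left without a direction, because its gene sum here held 0.0161 of the mean normalised count in the authors' table, whereas the other 45 members lay at 0.967 to 0.989 of theirs.

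Both lipid-handling luminal proteins fell. Psap, the precursor of the saposins that present sphingolipids to their hydrolases, was the most abundant member in Rpl22+/+ cells at 1277 ± 242 TPM. It was at 579.9 ± 109.4 TPM in Rpl22-/- cells, where Laptm5 was higher at 915.5 ± 47.0 TPM. Its CPM was 1995, 3758 and 2389 in Rpl22+/+ and 821.9, 1320 and 1252 in Rpl22-/- cells, with no overlap (log2 fold change -1.26 ± 0.30, adjusted p = 0.0227). Npc2, which binds cholesterol in the lumen and hands it to Npc1, was at 238.6, 408.2 and 273.4 against 144.7, 194.7 and 177.6 CPM (-0.83 ± 0.24, adjusted p = 0.0407). For both genes the adjusted p-value passed 0.05 when Rpl22+/+ replicate 3, Rpl22-/- replicate 1 or Rpl22-/- replicate 3 was left out, up to 0.0762 for Psap and 0.137 for Npc2. Grn, the progranulin precursor, overlapped between groups, at 387.7 to 696.9 and 447.1 to 508.6 CPM (-0.11 ± 0.24, adjusted p = 0.78). Npc1 itself, a membrane protein, was at 54.0, 83.2 and 61.6 against 50.7, 51.4 and 49.4 CPM, apart but not called (-0.39 ± 0.18, adjusted p = 0.16).

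Of the 11 membrane proteins, 2 were lower and 1 was higher, beside 13.8% and 13.7% of all genes. Lamp1 and Lamp2 are the most abundant glycoproteins of the lysosomal membrane. Lamp1 (chromosome 8, 13209161 to 13225338, GRCm39) was at 570.7, 992.7 and 642.9 CPM in Rpl22+/+ and 339.2, 474.2 and 407.8 CPM in Rpl22-/- cells (log2 fold change -0.85 ± 0.25, adjusted p = 0.0455). Lamp2 (chromosome X, 37490234 to 37545331) was at 353.6, 355.2 and 367.4 against 237.3, 289.3 and 231.2 CPM (-0.51 ± 0.14, adjusted p = 0.039). Its Rpl22+/+ libraries were close to each other and all above the Rpl22-/- libraries. Lamp1 was not called without Rpl22+/+ replicate 3, Rpl22-/- replicate 1 or Rpl22-/- replicate 3 (adjusted p up to 0.149), and Lamp2 without any of these or Rpl22+/+ replicate 1 (up to 0.154). Lamp2 also lost its call in 7 of the 13 other fits that kept all libraries, with adjusted p-values up to 0.912.

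Laptm4b, a transmembrane protein of late endosomes and lysosomes, had the largest change of any member. Laptm4b (chromosome 15, 34238174 to 34284448, GRCm39) was at 2.98, 4.15 and 2.65 CPM in Rpl22+/+ and at 36.3, 36.4 and 29.6 CPM in Rpl22-/- cells. The log2 fold change was 3.39 ± 0.22 (adjusted p = 0.000173), and it was called in all 19 other fits, from 3.25 to 3.56 when single libraries were left out. In TPM it went from 2.22 ± 0.252 to 25.7 ± 3.38. Its family members did not share this: Laptm4a was at 93.4 to 129.2 CPM in Rpl22+/+ and 88.9 to 115.9 CPM in Rpl22-/- cells (-0.11 ± 0.18, adjusted p = 0.71). Laptm5, the form of hematopoietic cells and the most abundant membrane protein of the list by TPM, was at 1030 to 1878 and 1562 to 1736 CPM (0.30 ± 0.25, adjusted p = 0.434). Without Rpl22+/+ replicate 2 the change of Laptm5 was 0.56 (adjusted p = 0.0193).

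The other membrane proteins were not called. The 3 vacuolar ATPase subunits Atp6v0d1, Atp6v1a and Atp6v1h had log2 fold changes of -0.47 ± 0.20, -0.40 ± 0.14 and -0.21 ± 0.16, and the groups were apart for the first and second of them. Mcoln1, a calcium channel of the lysosomal membrane, was at 31.7 to 33.9 CPM in Rpl22+/+ and 26.9 to 33.6 CPM in Rpl22-/- cells (-0.14 ± 0.13, adjusted p = 0.492). Cd63, a tetraspanin, was at 113.4 to 167.2 and 135.9 to 180.0 CPM (0.25 ± 0.20, adjusted p = 0.426).

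Of the 6 autophagy genes, 3 were lower, and none was higher, beside 13.8% and 13.7% of all genes, and 6 genes are too few to set against these shares. Map1lc3b, which encodes the LC3B protein of autophagosome membranes, was at 153.4, 223.8 and 165.3 CPM in Rpl22+/+ and 84.3, 110.7 and 123.6 CPM in Rpl22-/- cells (log2 fold change -0.77 ± 0.21, adjusted p = 0.037). Ulk1, the kinase that starts autophagy, was at 80.9, 108.8 and 90.6 against 65.1, 64.1 and 67.8 CPM (-0.51 ± 0.15, adjusted p = 0.0424). Wipi1, which binds phosphoinositides on forming autophagosomes, was at 75.3, 77.7 and 74.6 against 62.8, 46.7 and 47.3 CPM (-0.54 ± 0.15, adjusted p = 0.0418). No group overlapped for these genes, but the calls are close to the threshold. Map1lc3b stayed past it without Rpl22+/+ replicate 2 (adjusted p = 0.0338) and not without any other single library (up to 0.115). Ulk1 was lost without Rpl22+/+ replicate 3 or any 1 Rpl22-/- library (up to 0.127), and Wipi1 without Rpl22+/+ replicate 1 or 3 or Rpl22-/- replicate 2 or 3 (up to 0.16). Of the 13 other fits that kept all libraries, Map1lc3b lost its call in 2, Ulk1 in 3 and Wipi1 in 4, with adjusted p-values up to 0.318, 0.896 and 0.816. Sqstm1, the cargo receptor p62 and the autophagy gene with the highest mean TPM, overlapped between groups at 158.3 to 257.3 and 114.4 to 208.7 CPM (-0.29 ± 0.28, adjusted p = 0.491). Uvrag and Gabarapl1 were not called, at -0.43 ± 0.15 and 0.16 ± 0.28.

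**Figure D3:**
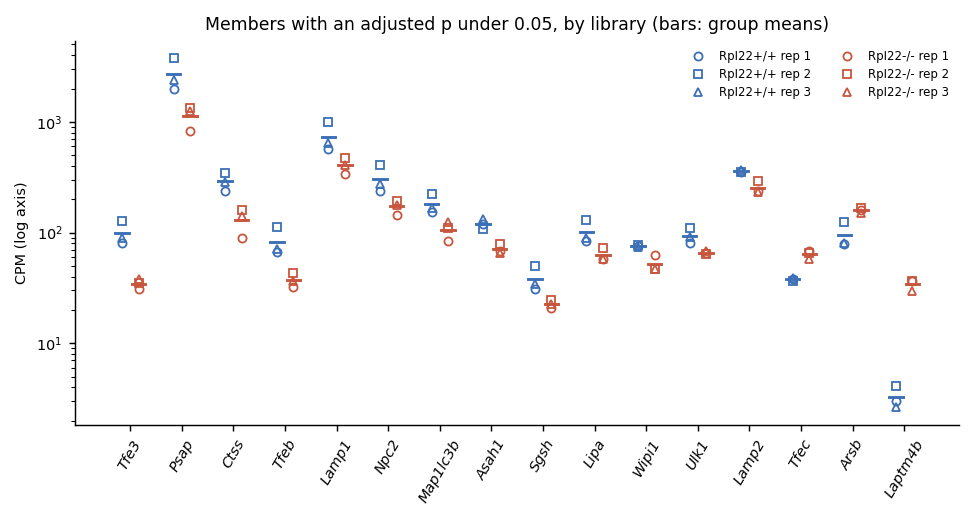
CPM on a log axis of the 16 members with an adjusted p-value under 0.05, ordered by log2 fold change, with Rpl22+/+ in blue, Rpl22-/- in red, a symbol for each replicate number and a bar at each group mean. The groups do not overlap for any of the 16, and the Rpl22+/+ square (replicate 2) is the highest blue symbol for most of the genes that fell.

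The 141 tested genes that are no members gave 10 higher and 25 lower calls and a median log2 fold change of -0.12, beside 13.7% and 13.8% of all genes and a median of 0.07. The calls of 34 of these 35 genes held without Rpl22+/+ replicate 2 (the exception was Map1lc3a), when 23 genes were higher and 40 lower. Of all 17183 genes tested in that fit, 3543 were higher and 3312 lower. Among 33 other hydrolases, 6 were lower and 3 higher (8 and 7 without that library). Hgsnat, which acetylates heparan sulfate in the lysosomal membrane, fell by 1.78 ± 0.19 on the log2 scale, from 84.8, 126.1 and 91.6 CPM to 27.8, 32.5 and 27.5 CPM (adjusted p = 0.00104). Scpep1, a serine carboxypeptidase, fell by 1.62 ± 0.28 (adjusted p = 0.00712). The hyaluronidases Hyal2 and Hyal1 rose by 1.38 ± 0.29 and 1.29 ± 0.24, from Rpl22+/+ levels of 2.31 to 4.35 CPM and 0.695 to 0.797 CPM (adjusted p = 0.0151 and 0.0089), and were not called without Rpl22+/+ replicate 3 (up to 0.0634 and 0.0502), nor was Hyal2 without replicate 1. Ctsc, named after its values were seen and the peptidase that activates the serine proteases of primary granules, fell from 320.8, 353.6 and 371.2 CPM to 87.9, 124.6 and 131.3 CPM (-1.60 ± 0.19, adjusted p = 0.00151), while the 5 primary granule genes rose.

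Of 16 tested subunits of the vacuolar ATPase other than the members, 2 were higher and 1 was lower, beside 13.7% and 13.8% of all genes. Without Rpl22+/+ replicate 2 they were 3 and 5, beside 3543 and 3312 of all 17183 genes. These calls are too few to set against the shares of all genes. Atp6v0a1 was at 79.3, 80.3 and 80.5 CPM in Rpl22+/+ and 40.5, 39.6 and 36.3 CPM in Rpl22-/- cells (log2 fold change -1.05 ± 0.12, adjusted p = 0.0012). Tcirg1, which encodes another isoform of the same membrane subunit, was at 269.3, 303.7 and 265.2 against 541.8, 509.2 and 489.4 CPM (0.88 ± 0.13, adjusted p = 0.00413). Atp6ap2, an accessory subunit, rose by 0.95 ± 0.13 (adjusted p = 0.00256), a call that was lost after a correction for GC content (0.369). The calls of all 3 held whichever library was left out.

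Of 22 other lysosomal membrane proteins 7 were lower and none was higher (11 and 2 without Rpl22+/+ replicate 2), beside 13.8% and 13.7% of all genes. Cd164, a sialomucin, fell by 1.11 ± 0.15 (adjusted p = 0.00239), and the nucleoside transporter Slc29a3 by 0.77 ± 0.20 (adjusted p = 0.0314, and up to 0.115 without Rpl22+/+ replicate 3, Rpl22-/- replicate 1 or Rpl22-/- replicate 3). Of 35 other autophagy genes 8 were lower and 2 higher (12 and 4 without Rpl22+/+ replicate 2), beside the same shares of all genes. Atg7, the activating enzyme of LC3 conjugation, fell by 1.32 ± 0.20, from 86.0, 132.5 and 90.2 CPM to 41.1, 45.0 and 37.2 CPM (adjusted p = 0.0042), and Map1lc3a fell by 1.40 ± 0.41 (adjusted p = 0.0455). Atg14 and Atg12 rose by 0.54 ± 0.16 and 0.41 ± 0.12 (adjusted p = 0.0477 and 0.0455). Map1lc3a was called in 1 of the 6 fits without a library, the one without Rpl22-/- replicate 3, and Atg14 and Atg12 in the 1 without Rpl22+/+ replicate 2, with adjusted p-values up to 0.141, 0.173 and 0.169. Map1lc3a and Atg12 were also lost in 3 and Atg14 in 2 of the 13 other fits that kept all libraries.

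Of 26 Rag and mTORC1 pathway genes besides the members, 2 were higher and 3 lower (5 and 4 without Rpl22+/+ replicate 2). Of all genes tested, 13.7% were higher and 13.8% lower. Nprl2 of the GATOR1 complex and Itfg2 of KICSTOR, both of which restrain mTORC1, rose by 1.03 ± 0.15 and 0.79 ± 0.13 (adjusted p = 0.00346 and 0.00606). Mlst8, a subunit of both mTOR complexes, was at 85.7, 111.2 and 84.3 CPM in Rpl22+/+ and 50.7, 52.4 and 45.4 CPM in Rpl22-/- cells (-0.92 ± 0.16, adjusted p = 0.00637), and Wdr59 of GATOR2 fell by 0.64 ± 0.19 (adjusted p = 0.046). Wdr59 kept its call without Rpl22+/+ replicate 2 and lost it without any other library (up to 0.139) and in 7 of the 13 other fits that kept all libraries (up to 0.546). The third lower gene was Depdc5, which belongs to GATOR1 like Nprl2 but went the other way. Its log2 fold change was -0.59 to -0.43 when single libraries were left out. Depdc5 lost its call in 4 of those 6 fits and in 5 of the 13 others (adjusted p up to 0.137 and 0.893). Of 9 genes of mannose 6-phosphate tagging and sorting, Gnptg, a subunit of the enzyme that adds the tag, rose by 0.74 ± 0.17 (adjusted p = 0.0194, and up to 0.0899 without Rpl22+/+ replicate 1 or 3 or Rpl22-/- replicate 1), and none was lower. Without Rpl22+/+ replicate 2, 2 of the 9 were higher and still none was lower.

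**Figure D4:**
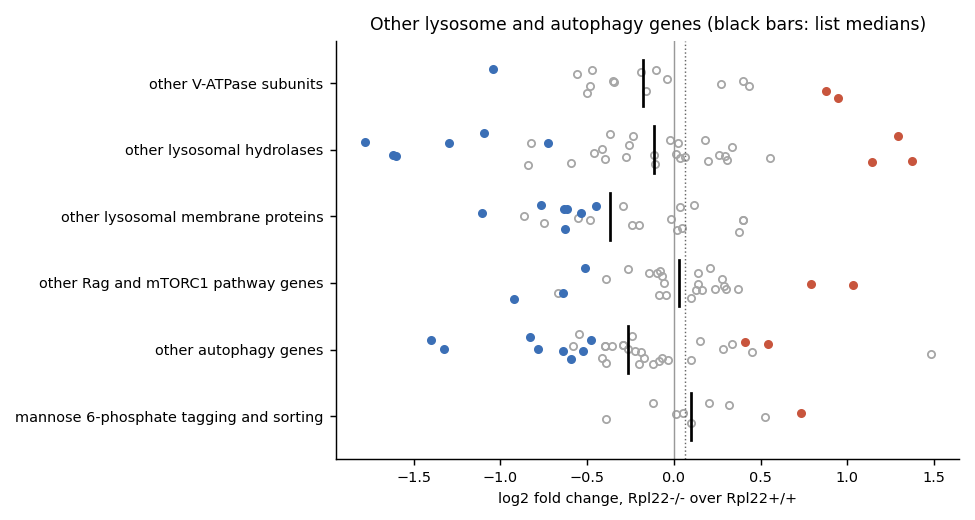
Log2 fold change (Rpl22-/- over Rpl22+/+) of the 141 tested lysosome, autophagy and nutrient-sensing genes that are no members, 1 point per gene and 1 row per list, red where called higher, blue where called lower and open where not called, with a black bar at each list's median and a dotted line at the median of all genes. Medians run from -0.37 for other membrane proteins to 0.10 for mannose 6-phosphate genes.

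The share of each transcript within its gene is a measure that the choice of members did not use. Transcripts could be tested in 41 of the 46 members (189 transcripts), and a transcript was called with an adjusted p-value under 0.05 and a difference of at least 10 percentage points, as 0.212% of all 46279 transcripts were. Cd63-202 was the member transcript called. It made up 12.6%, 14.0% and 15.6% of the reads of Cd63 in Rpl22+/+ and 1.61%, 1.61% and 1.20% in Rpl22-/- cells (adjusted p = 0.00135, edgeR), from 4061 and 555 estimated reads in the groups' sums. Cd63-201 took up the difference, at 84.3%, 84.1% and 81.7% against 96.7%, 96.8% and 96.9%. In GENCODE vM21 Cd63-202 starts 879 bases upstream of Cd63-201 and shares 6 of its 8 exons. The call held in all 9 other fits, with adjusted p-values up to 0.0121, although the summed level of Cd63 was not called.

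Laptm5-201, which starts 2824 bases downstream of the main transcript, passed the adjusted p-value (5.48e-06) at a small share. It held 2.52%, 1.24% and 0.811% of Laptm5 reads in Rpl22+/+ and 0%, 0.0247% and 0.0430% in Rpl22-/- cells, a difference of 1.5 percentage points, so it was not called. Lamp2-201 and Lamp2-202 share their first 8 exons and differ in the last, which encodes the membrane anchor and the tail. Lamp2-202, the main form, held 78.3%, 73.1% and 77.6% in Rpl22+/+ and 70.4%, 71.9% and 69.0% in Rpl22-/- cells, and Lamp2-201 held 20.2%, 26.2% and 20.8% against 28.3%, 27.4% and 28.5%. The groups were apart, but neither share passed the test in the reported fit or the others run. Tfeb-202 held 78.2%, 87.3% and 78.5% of Tfeb against 60.4%, 72.5% and 79.6%, with overlap, and Mitf-202 held 86.6%, 84.9% and 78.5% of Mitf against 91.1%, 88.7% and 89.6%, from 1211 and 1594 reads. Neither passed the test. On simulated libraries the test found few of the changes put in and made some false calls, so a share that did not pass is not shown to be the same in both groups. Cd63-202 was also called by limma's diffSplice, which did better there (adjusted p = 4.04e-07).

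**Figure D5:**
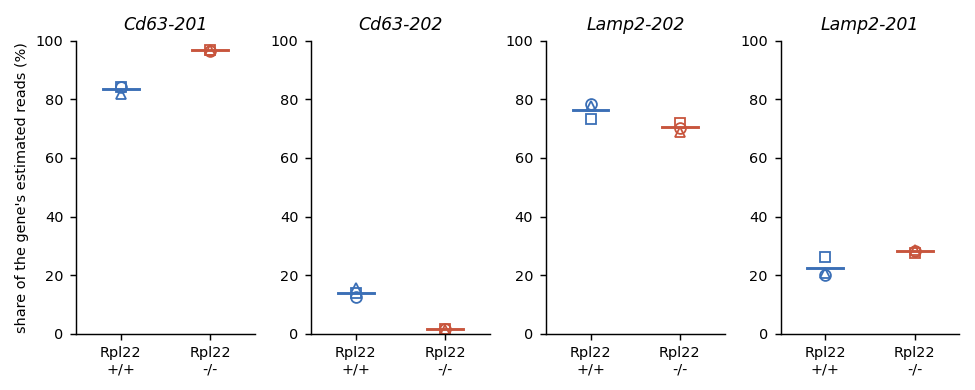
Share of the gene's estimated reads (%) held by 2 transcripts of Cd63 and 2 of Lamp2, with Rpl22+/+ in blue, Rpl22-/- in red, circles, squares and triangles for replicates 1, 2 and 3, and a bar at each group mean. Cd63-202 drops from a mean of 14.1% to 1.47%, and the Lamp2 shares shift by 5.68 and 5.95 percentage points.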

How the data were processed

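Sorted CD11b+Gr1+ splenocytes gave poly(A) RNA for stranded paired-end Illumina sequencing. Per the labels and the study's methods, the authors trimmed reads with Trimmomatic and deposited Salmon estimated counts and TPM for 276623 transcripts per library (GRCm39 in the submitters' processing notes; versions are not given in the sources used here). The deposited DESeq2 table gave gene positions and base means (normalised counts, a signal averaged over libraries). Its log2 fold changes, standard errors, statistics, p-values, −log10 values and call labels, also deposited by the authors, were not used.

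Estimated counts were summed to genes with GENCODE vM21 on identifiers without versions, and the gene sums were rounded. These identifiers matched 49.2% of the transcripts and 98.0% to 98.1% of the reads, so a gene can be incomplete, as Gla was and as Acp2 was among the other lysosome genes (0.399 of the authors' mean). The members and lists were chosen with earlier results of these data known. Genotypes were compared with edgeR 4.0.16 in R 4.3.3 (quasi-likelihood F test, TMM scaling, filterByExpr, genotype only), with p-values adjusted by Benjamini-Hochberg over all genes. A gene was called under 0.05. Standard errors were taken as the absolute log2 fold change over the square root of F. CPM used TMM-scaled library sizes. Transcript shares were tested with diffSpliceDGE, and all tests were tested on simulated data. Alternatives used DESeq2 1.42.0, limma 3.58.1, other scalings, filters and pseudocounts, a replicate block, a GC correction (chosen after seeing the data), and each library left out. Named were all regulators, the called members of each class by size of change with its most abundant member, and up to 2 called genes per direction of each other list. Ctsc and Depdc5 were named besides. Promoter windows came from RefSeq. Figures used matplotlib 3.10.9.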

Additional observations from a re-analysis of the deposited data

Results flagged for a closer look

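Gla, the alpha-galactosidase A gene, carried signal in a column that the comparisons do not use. In the authors' table its mean normalised count over the libraries was 1766, whereas the gene sum made here averaged 28.5 on the same kind of scale, and its CPM ranged from 0.027 to 0.84 over the libraries. The other 45 members lay within 0.967 to 0.989 of the authors' mean. No genotype difference is given for Gla, since the reads of its unmatched transcripts were not analysed here.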

How the results depend on the processing

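The reported counts of members were 3 higher and 13 lower. Higher members numbered 7 with no composition factor, 8 with limma on log2(TPM + 1) or on log2(TPM + 0.1), 1 under a minimum fold of 1.5, 7 with the replicate block and 7 with the GC correction, which was chosen after seeing the data. Lower members numbered 1 under the minimum fold of 1.5. Leaving out 1 library each gave 2 to 8 higher and 2 to 15 lower. Calls among all genes moved too, from 2288 higher and 2306 lower to 1175 to 3543 higher and 1387 to 3312 lower without 1 library. Higher calls among all genes numbered 3543 with no composition factor, 3219 on log2(TPM + 1) and 3273 on log2(TPM + 0.1). They numbered 1120 under the minimum fold, 2943 with the block and 2889 with the GC correction. All 16 member calls were shared with the fits without Rpl22+/+ replicate 2, with the block, with DESeq2 and with its size factors, and without Gla nothing changed. No called member changed sign in any fit, while uncalled members near 0, such as Mitf, Flcn and Grn, did. For the other lysosome and autophagy genes the reported counts were 10 higher and 25 lower. Higher genes numbered 23 with no composition factor, 25 on log2(TPM + 1), 26 on log2(TPM + 0.1) and 4 under the minimum fold. Lower genes numbered 38 with the DESeq2 test, 7 under the minimum fold and 38 with the GC correction. Leaving out 1 library each gave 5 to 23 higher and 9 to 40 lower. Fits without a library have fewer samples, and the cause of the other shifts was not tested. With no composition factor the median of all genes moved from 0.07 to 0.19, and that of the members from -0.22 to -0.08. Member transcripts called were 1 in the reported fit and 2 with limma diffSplice, where Cd63-201 joined Cd63-202. Leaving out 1 library each gave 1 to 2, with Laptm4b-202 added without Rpl22+/+ replicate 2.

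Replicate numbers did not pair the samples by the rule used (every correlation over 0.1 over the genes tested), but number 3 lay close to that limit and passed it over the better counted genes. Deviations from the group means correlated at 0.479, 0.634 and 0.0975 for numbers 1, 2 and 3 over 16656 genes, and at 0.570, 0.715 and 0.129 over the 13202 genes averaging 50 counts or more. Rpl22+/+ replicate 3 correlated better with Rpl22-/- replicate 1 than with its own number, at 0.357. With the replicate block, 7 members were higher and 15 lower, with Neu1, Hexa, Gaa and Glb1 added to the higher and Ctsa and Ctsh to the lower calls, and 14 of the other genes were higher and 31 lower. Depth limited Rragd, under 0.7 CPM in every library.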
